A study of Mus musculus with 6 samples.

Results

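The integrin and laminin genes of the mouse were followed through tumours of 2 pancreatic carcinoma lines and through normal pancreas. The set holds the 36 genes of a fixed list of symbols that the authors' tables name, out of 27179 counted genes: 18 integrin alpha chains, 8 integrin beta chains, 5 laminin alpha chains, 3 laminin beta chains and 2 laminin gamma chains. RNA was sequenced from 6 samples in 3 groups of n = 2. H7 tumours grew from PANC02-H7 cells, a subline of Panc02, which came from a chemically induced carcinoma of a C57BL/6 mouse. UNKC tumours grew from UN-KC-6141 cells, a line from a mouse pancreatic tumour. Cells of each line were placed by surgery in the pancreas of C57BL/6 mice, and the tumours were removed after 20 days. Normal pancreas was the whole organ of C57BL/6 mice. None of the mice was treated, and the labels give neither age nor sex. Each tumour group comes from 1 line, and a tumour sample holds the injected cells together with the host's stroma, vessels and blood cells. The labels do not say that replicates are separate mice, so the p-values measure the spread between these samples, which may be technical.

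Integrins are receptors of the cell surface, each made of 1 alpha and 1 beta chain, that bind the extracellular matrix or other cells and link them to the actin or keratin cytoskeleton. The alpha chain largely sets the ligand: laminin, collagen, proteins with the RGD motif such as fibronectin and vitronectin, or surface proteins of other cells for the integrins of leukocytes. Laminins are trimers of an alpha, a beta and a gamma chain and form the network of the basement membrane. In the pancreas they lie under acini, ducts, islets and vessels, and the laminin receptors on epithelial cells anchor them there.

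Reads counted in genes numbered 33332516 and 36307030 in H7 tumours, 40507546 and 38728423 in UNKC tumours, and 12077320 and 8204225 in normal pancreas. Ribosomal RNA and Lars2 took 27.8% and 24.6% of them in H7 tumours and 21.2% and 20.1% in UNKC tumours, against 92.0% and 85.2% in normal pancreas. The 36 genes together had 129495 and 146866 reads in H7 tumours, 250412 and 230266 in UNKC tumours and 1449 and 1604 in normal pancreas. The median member had 1306.5 to 1826.5 reads per tumour library, against 19 and 25 in normal pancreas. The labelled tissue carried its markers: acinar genes summed to 29.4 and 36.9 CPM in H7 tumours and 11.1 and 3.69 CPM in UNKC tumours, against 11170.1 and 10740.2 CPM in normal pancreas. Skeletal muscle genes summed to 1.32 and 583 CPM in H7 tumours and 1.09 and 2082 CPM in UNKC tumours, against 7.87 and 2.38 CPM in normal pancreas, so muscle RNA was high in replicate 2 of both tumours. Values per library are CPM, read counts scaled to the effective library size, which is the total corrected with TMM factors. Changes are log2 fold changes of the edgeR quasi-likelihood fit, called at an adjusted p below 0.05 over the 16306 genes tested. All of these are bulk samples, in which fewer cells of a type and less RNA per cell cannot be told apart.

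In H7 tumours against normal pancreas 15 of the 36 members rose and 7 fell, beside 29.6% of all tested genes higher and 21.9% lower (51.5% in either direction), and all 36 were among the tested genes. In UNKC tumours 17 rose and 6 fell, beside 29.1% higher and 19.3% lower (48.5% in either direction) over all genes. The share of members higher was thus 41.7% in H7 and 47.2% in UNKC tumours, above the background, while the share lower, 19.4% and 16.7%, was close to it. The median log2 fold change of the members was 0.64 in H7 and 1.11 in UNKC tumours, beside 0.34 and 0.42 over all tested genes. Without normal replicate 2 the median in H7 tumours was 0.31 for the members, below the 0.58 over all genes. Both comparisons use the same normal libraries. Itga3, Itga5, Itgav, Itgax, Itgb1, Itgb2, Itgb3, Itgb4, Itgb5, Itgb6, Lama5, Lamb1 and Lamc1 were higher in both tumours, and Itga10, Lama2 and Lamc3 lower in both. Itgb8 rose in H7 and fell in UNKC tumours, Lamb3 fell in H7 and rose in UNKC tumours, and 9 members passed in neither.

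Between the tumours 7 members were higher and 10 lower in H7 than in UNKC, which is 19.4% and 27.8%, beside 7.14% and 11.1% of all tested genes (18.3% in either direction). The median member differed by a log2 fold change of -0.57, beside -0.02 over all genes. Those higher in H7 tumours were Itga2b, Itga4, Itga8, Itgal, Itgax, Itgb2 and Itgb8, of which Itgal, Itgax and Itgb2 are leukocyte chains. Those lower were Itga2, Itga5, Itga6, Itgav, Itgb1, Itgb7, Lama4, Lama5, Lamb3 and Lamc3. All 10 laminin genes had a negative log2 fold change in H7 against UNKC tumours, of which 4 passed the test. With any 1 tumour library left out, fewer members and fewer of all tested genes were called between the tumours than with all 6. The median member then differed by a log2 fold change of -0.54 to -0.39, beside -0.03 to 0.01 over all genes. Itga6, Itgax, Itgb8 and Lamb3 passed the test with any 1 of the 6 libraries left out.

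The scaling of the normal libraries bears on every rise and fall against normal pancreas. In H7 tumours the median of all genes was -0.28 with DESeq2 and 0.82 with total counts without ribosomal RNA and Lars2. With total counts and no factor the median of all genes stood at 3.61 in H7 and 3.77 in UNKC tumours, 77.9% and 82.8% of genes were called higher, and 29 and 32 members were called higher with 1 and 0 lower. Of the falls against normal pancreas, those of Itga10, Lama2, Lama3, Lama4 and Lamb3 in H7 tumours and of Itga10, Itga8, Itga4, Itgb8, Lama2 and Lamc3 in UNKC tumours had a positive log2 fold change on that scale. Each of these values, between 0.32 (Itga10 in UNKC tumours) and 2.53 (Itga4 in UNKC tumours), was below the median of all genes on the same scale. The rises and falls given below are thus relative to the other genes of the library.

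**Figure D1:**
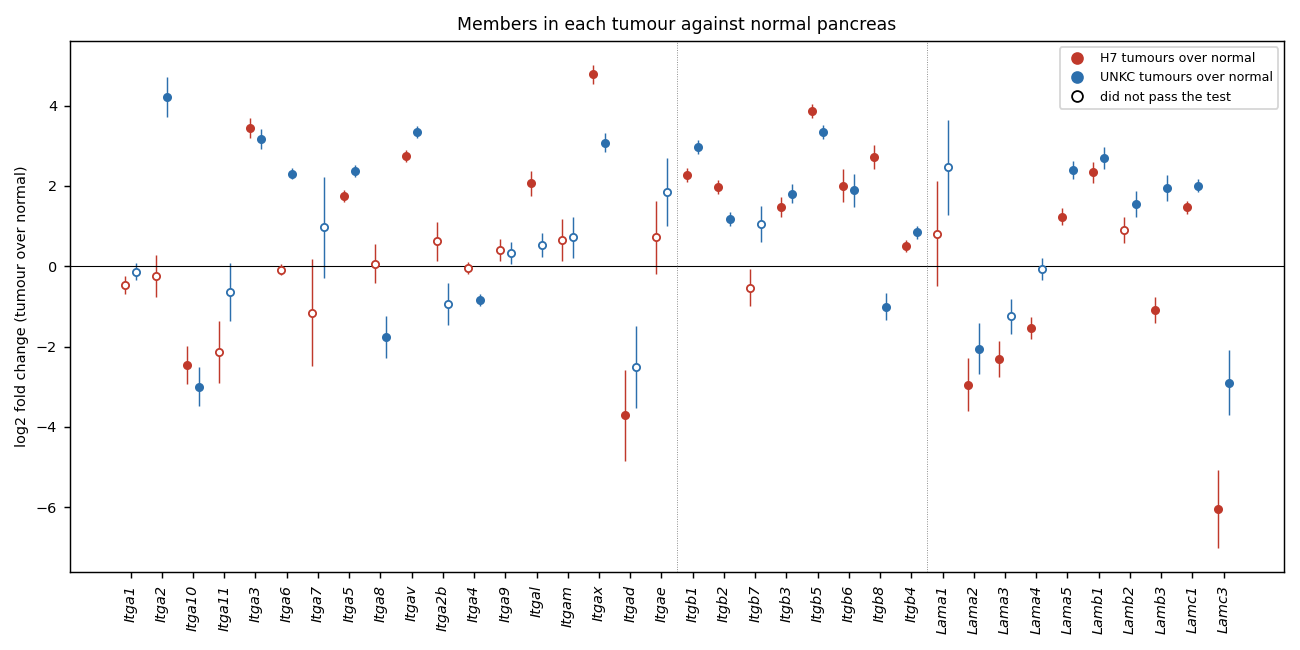
Points show the log2 fold change of each of the 36 members against normal pancreas in H7 tumours and in UNKC tumours, with bars for the SE of the edgeR fit. Itgax lies highest in H7 tumours at 4.78, Itga2 highest in UNKC tumours at 4.21, and Itgb8 and Lamb3 pass the test in opposite directions.

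The members that differed most between the tumours, with at least 5 CPM in the higher tumour group, were Itga2, Itgb8 and Lamb3, at -4.45, 3.73 and -3.05 on the log2 scale. Windows before a start site are shown because these genes differed most between the tumours. The 250 bases before a start site come from RefSeq on GRCm38.p6, read 5′ to 3′ on the gene's strand, and Lamb3 is shown for 1 of its 2 listed start sites. The windows of Itga2 and Itgb8 adjoin the 5′ end of the gene. That of Lamb3 lies inside its gene, which spans chr1:193294353-193343878, so it is the window of an internal start site.
Itga2 (chr13:114932101-114932350, minus strand): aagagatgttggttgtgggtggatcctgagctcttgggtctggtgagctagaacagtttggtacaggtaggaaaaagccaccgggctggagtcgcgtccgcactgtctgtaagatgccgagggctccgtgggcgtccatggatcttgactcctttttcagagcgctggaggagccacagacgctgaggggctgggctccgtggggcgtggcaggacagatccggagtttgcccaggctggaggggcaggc
Itgb8 (chr12:119238277-119238526, minus strand): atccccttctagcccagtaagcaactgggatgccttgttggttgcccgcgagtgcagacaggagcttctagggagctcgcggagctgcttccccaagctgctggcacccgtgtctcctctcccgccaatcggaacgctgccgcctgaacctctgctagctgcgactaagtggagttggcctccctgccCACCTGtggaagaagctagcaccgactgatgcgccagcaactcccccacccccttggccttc
Lamb3 (chr1:193301744-193301993, plus strand): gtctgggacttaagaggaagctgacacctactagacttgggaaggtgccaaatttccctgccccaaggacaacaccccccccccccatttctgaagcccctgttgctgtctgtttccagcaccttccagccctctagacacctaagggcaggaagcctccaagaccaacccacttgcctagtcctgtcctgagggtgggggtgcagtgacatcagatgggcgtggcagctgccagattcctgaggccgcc
Capitals mark the letters CACCTG, an E-box that repressors of epithelial genes can bind, which occurred once before Itgb8 and is found on either strand in 17.2% of 32851 such windows. The AP-1 motif TGANTCA, found in 6.75% of windows, and the GC box GGGCGG, found in 32.7%, were searched on both strands and matched none of the 3 windows. The windows before Itga2 and Itgb8 each hold 12 CpG at a GC content of 60.8% and 62.4%, and that before the internal start site of Lamb3 holds 2 at 58.8%. A match is a description of letters, and no match says only that these letters are not in the window.

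Among the laminin alpha chains Lama5, the alpha chain of most adult basement membranes, rose in both tumours. It stood at 149.6 and 145 CPM in H7 tumours and 328 and 330.4 CPM in UNKC tumours, against 48.6 and 76.3 CPM in normal pancreas, with no overlap between the 3 groups. The log2 fold change was 1.24 ± 0.22 (SE, adjusted p = 0.00449) in H7 tumours and 2.40 ± 0.22 (SE, adjusted p = 0.000503) in UNKC tumours. Between the tumours Lama5 was lower in H7 by a log2 fold change of -1.16 ± 0.21 (SE, adjusted p = 0.0152), a call lost without any 1 of the 4 tumour libraries (adjusted p 0.00242 to 0.143 over the libraries left out). Lama4, the chain of vessel walls, stood at 13.0 and 19.2 CPM in H7 tumours and 36.1 and 53.2 CPM in UNKC tumours, against 50.0 and 43.4 CPM in normal pancreas. It fell in H7 tumours, by a log2 fold change of -1.53 ± 0.28 (SE, adjusted p = 0.00507), while UNKC tumours overlapped normal pancreas (-0.07 ± 0.27, SE, adjusted p = 0.856). H7 tumours were lower than UNKC tumours by a log2 fold change of -1.47 ± 0.27 (SE, adjusted p = 0.0155), a call lost without H7 replicate 1 or UNKC replicate 2 (adjusted p up to 0.13). The endothelial markers summed to 38.4 and 52.5 CPM in H7 tumours and 66.6 and 105 CPM in UNKC tumours, against 79.1 and 89.2 CPM in normal pancreas, and their part in the Lama4 level was not tested.

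Lama2, the chain of muscle and peripheral nerve, stood at 2.61 and 6.12 CPM in H7 tumours and 4.10 and 12.2 CPM in UNKC tumours, against 29.6 and 37.7 CPM in normal pancreas. All 4 tumour libraries were below both normal libraries, and replicate 2, which carried the muscle RNA, was the higher in each tumour. The fall was a log2 fold change of -2.94 ± 0.65 (SE, adjusted p = 0.0111) in H7 tumours and -2.05 ± 0.63 (SE, adjusted p = 0.0387) in UNKC tumours. It was lost in H7 tumours without H7 replicate 1 and in UNKC tumours without UNKC replicate 1 or either normal library (adjusted p up to 0.0669 and 0.137). Without replicate 2 of the tumour the log2 fold change of Lama2 was -3.66 in H7 and -3.01 in UNKC tumours. Lama3, which pairs with Lamb3 in the laminin of epithelial anchoring, stood at 6.34 and 5.29 CPM in H7 tumours and 16.4 and 7.82 CPM in UNKC tumours, against 20.8 and 36.7 CPM in normal pancreas. Lama3 fell in H7 tumours by a log2 fold change of -2.31 ± 0.44 (SE, adjusted p = 0.00654) and missed the threshold in UNKC tumours at -1.25 ± 0.43 (SE, adjusted p = 0.0557). The UNKC fall was called with DESeq2 (adjusted p = 0.00956 at a log2 fold change of -1.43), with RLE or upper-quartile factors, with a filter of 10 CPM, and without UNKC replicate 1 or normal replicate 1. Without H7 replicate 2 the H7 call was lost (adjusted p = 0.0574). Lama1, an alpha chain of the early embryo, had 5 reads in normal pancreas and at most 7.12 CPM in a tumour.

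Lamb1, the widely used beta chain, stood at 165 and 159 CPM in H7 tumours and 231 and 186 CPM in UNKC tumours, against 23.6 and 40.5 CPM in normal pancreas. Lamb1 rose by a log2 fold change of 2.34 ± 0.27 (SE, adjusted p = 0.000943) in H7 tumours and 2.70 ± 0.27 (SE, adjusted p = 0.000654) in UNKC tumours, and did not pass the test between them. Lamb2, found in muscle, kidney and vessel basement membranes, stood at 47.5 and 43.2 CPM in H7 tumours and 61.9 and 81.3 CPM in UNKC tumours, against 16.2 and 32.4 CPM in normal pancreas. It rose in UNKC tumours by a log2 fold change of 1.56 ± 0.32 (SE, adjusted p = 0.0092) and not in H7 tumours by the test, at 0.90 ± 0.32 (SE, adjusted p = 0.0579). It was called in H7 tumours with DESeq2 (adjusted p = 0.038 at a log2 fold change of 0.76) and without normal replicate 2 (adjusted p = 0.00486 at a log2 fold change of 1.52), which also moved the UNKC value to 2.18 on the log2 scale. Lamb3, at chr1:193294353-193343878 and the beta chain of epithelial anchoring laminin, stood at 5.62 and 3.84 CPM in H7 tumours and 47.0 and 31.3 CPM in UNKC tumours, against 9.25 and 11.0 CPM in normal pancreas. The 3 groups did not overlap, with UNKC tumours highest and H7 tumours lowest. Lamb3 was lower in H7 than in UNKC tumours by a log2 fold change of -3.05 ± 0.29 (SE, adjusted p = 0.00217), and this call held with any 1 library left out (adjusted p 0.00326 to 0.0358). Against normal pancreas it rose in UNKC tumours by a log2 fold change of 1.95 ± 0.32 (SE, adjusted p = 0.00363) and fell in H7 tumours by -1.10 ± 0.32 (SE, adjusted p = 0.0313). The fall in H7 tumours was lost without any 1 H7 or normal library (adjusted p up to 0.141). Epithelial markers summed to 399 and 386 CPM in H7 tumours and 1143 and 954 CPM in UNKC tumours, against 228 and 162 CPM in normal pancreas, and their part in the Lamb3 difference was not tested.

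Lamc1, the gamma chain of most laminins, stood at 132 and 144 CPM in H7 tumours and 191 and 209 CPM in UNKC tumours, against 55.5 and 43.9 CPM in normal pancreas. Lamc1 rose by a log2 fold change of 1.47 ± 0.16 (SE, adjusted p = 0.000769) in H7 tumours and 2.01 ± 0.16 (SE, adjusted p = 0.000321) in UNKC tumours, so the 3 chains of the most common adult laminin, Lama5, Lamb1 and Lamc1, were all higher in both. Between the tumours Lamc1 did not pass the edgeR test (-0.54 ± 0.15, SE, adjusted p = 0.0587), but was called lower in H7 with DESeq2 (adjusted p = 0.000959 at a log2 fold change of -0.50) and without either normal library. Lamc3, a gamma chain of restricted use, stood at 0.0579 and 0.141 CPM in H7 tumours and 1.11 and 0.726 CPM in UNKC tumours, against 1.85 and 11.9 CPM in normal pancreas. The normal value rested on replicate 2, with 25 reads against 4 in replicate 1. Lamc3 fell by a log2 fold change of -6.05 ± 0.97 (SE, adjusted p = 0.00335) in H7 tumours and -2.90 ± 0.81 (SE, adjusted p = 0.0274) in UNKC tumours, and the UNKC call was lost without any 1 of 5 libraries (adjusted p up to 0.461). Its log2 fold change with 1 library left out ran -6.83 to -4.13 in H7 and -3.67 to -0.98 in UNKC tumours, with the smaller falls without normal replicate 2. Between the tumours it was lower in H7 by a log2 fold change of -3.15 ± 0.82 (SE, adjusted p = 0.0486), a call lost without any 1 tumour library.

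The laminin receptors differed in which alpha chain led. Itga3, which pairs with Itgb1 in a receptor for epithelial laminins, stood at 221 and 189 CPM in H7 tumours and 179 and 164 CPM in UNKC tumours, against 23.6 and 14.3 CPM in normal pancreas. Both tumours were far above normal pancreas, by a log2 fold change of 3.43 ± 0.25 (SE, adjusted p = 0.000245) in H7 and 3.18 ± 0.25 (SE, adjusted p = 0.000312) in UNKC tumours, and the tumours did not pass the test against each other (0.26). Itga6, at chr2:71786886-71858427, pairs with Itgb1 or, in hemidesmosomes, with Itgb4, and stood at 43.8 and 48.2 CPM in H7 tumours and 254 and 231 CPM in UNKC tumours, against 45.8 and 52.0 CPM in normal pancreas. H7 tumours overlapped normal pancreas (a log2 fold change of -0.09 ± 0.14, SE, adjusted p = 0.619), whereas UNKC tumours were higher by 2.31 ± 0.14 (SE, adjusted p = 0.000174). With upper-quartile factors (adjusted p = 0.0354 at a log2 fold change of -0.45) and with a filter of 10 CPM (adjusted p = 0.00868 at a log2 fold change of -0.61) Itga6 was called lower in H7 than in normal samples. Itga6 was lower in H7 than in UNKC tumours by a log2 fold change of -2.40 ± 0.14 (SE, adjusted p = 0.00067), which held with any 1 library left out. Itgb4, whose long tail links laminin to keratin filaments, stood at 109 and 84.8 CPM in H7 tumours and 119 and 126 CPM in UNKC tumours, against 69.4 and 67.3 CPM in normal pancreas. Itgb4 rose by a log2 fold change of 0.50 ± 0.16 (SE, adjusted p = 0.0379) in H7 and 0.84 ± 0.16 (SE, adjusted p = 0.00617) in UNKC tumours. The H7 call of Itgb4 was lost without any 1 library but H7 replicate 2 (adjusted p up to 0.132), with RLE factors (log2 fold change 0.33, adjusted p = 0.123) and with a filter of 10 CPM (log2 fold change -0.02). Itga7, the laminin receptor of muscle, stood at 1.33 and 3.08 CPM in H7 tumours and 1.73 and 17.6 CPM in UNKC tumours, against 3.24 and 6.68 CPM in normal pancreas, and did not pass the edgeR test. Its only high library was UNKC replicate 2. Muscle RNA was high in replicate 2 of both tumours, and its part in the Itga7 level was not tested. Without UNKC replicate 1 the log2 fold change of Itga7 in H7 against UNKC tumours was -2.99.

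Of the 4 collagen receptors 1 rose, in UNKC tumours. Itga2, at chr13:114833081-114932100 and partner of Itgb1 in a receptor for fibrillar collagen on epithelial cells and platelets, stood at 4.81 and 3.52 CPM in H7 tumours and 103 and 79.6 CPM in UNKC tumours, against 7.87 and 1.91 CPM in normal pancreas. UNKC tumours were far above both others, while H7 tumours lay between the 2 normal libraries. Itga2 was higher in UNKC tumours than in normal pancreas by a log2 fold change of 4.21 ± 0.50 (SE, adjusted p = 0.00122) and lower in H7 than in UNKC tumours by -4.45 ± 0.44 (SE, adjusted p = 0.00243). The rise in UNKC tumours was a log2 fold change of 5.60 without normal replicate 1 and 3.57 without normal replicate 2. Without H7 replicate 1 the difference between the tumours missed the threshold (adjusted p = 0.0552). The epithelial markers, whose part was not tested, were likewise highest in UNKC tumours. Itga1, a collagen IV receptor of stromal and smooth muscle cells, stood at 21.0 and 25.7 CPM in H7 tumours and 24.3 and 34.4 CPM in UNKC tumours, against 31.9 and 32.4 CPM in normal pancreas, and did not pass the edgeR test. It was called lower in H7 than in normal samples with upper-quartile factors (adjusted p = 0.0207 at a log2 fold change of -0.82), a filter of 10 CPM (adjusted p = 0.012 at a log2 fold change of -0.99) and fragment counts (adjusted p = 0.0299 at a log2 fold change of -0.71). Itga10, known from cartilage, stood at 1.97 and 1.36 CPM in H7 tumours and 0.908 and 1.39 CPM in UNKC tumours, against 6.48 and 11.9 CPM in normal pancreas. It fell by a log2 fold change of -2.46 ± 0.48 (SE, adjusted p = 0.00668) in H7 and -3.00 ± 0.48 (SE, adjusted p = 0.00361) in UNKC tumours, with all tumour libraries under both normal ones. Itga11, a collagen receptor of fibroblasts, averaged under 5 CPM in each group and did not pass the edgeR test. It was called lower in H7 than in normal samples with DESeq2 (adjusted p = 0.00681 at a log2 fold change of -2.29), RLE factors (adjusted p = 0.0477 at a log2 fold change of -2.30) and upper-quartile factors (adjusted p = 0.0372 at a log2 fold change of -2.50).

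**Figure D2:**
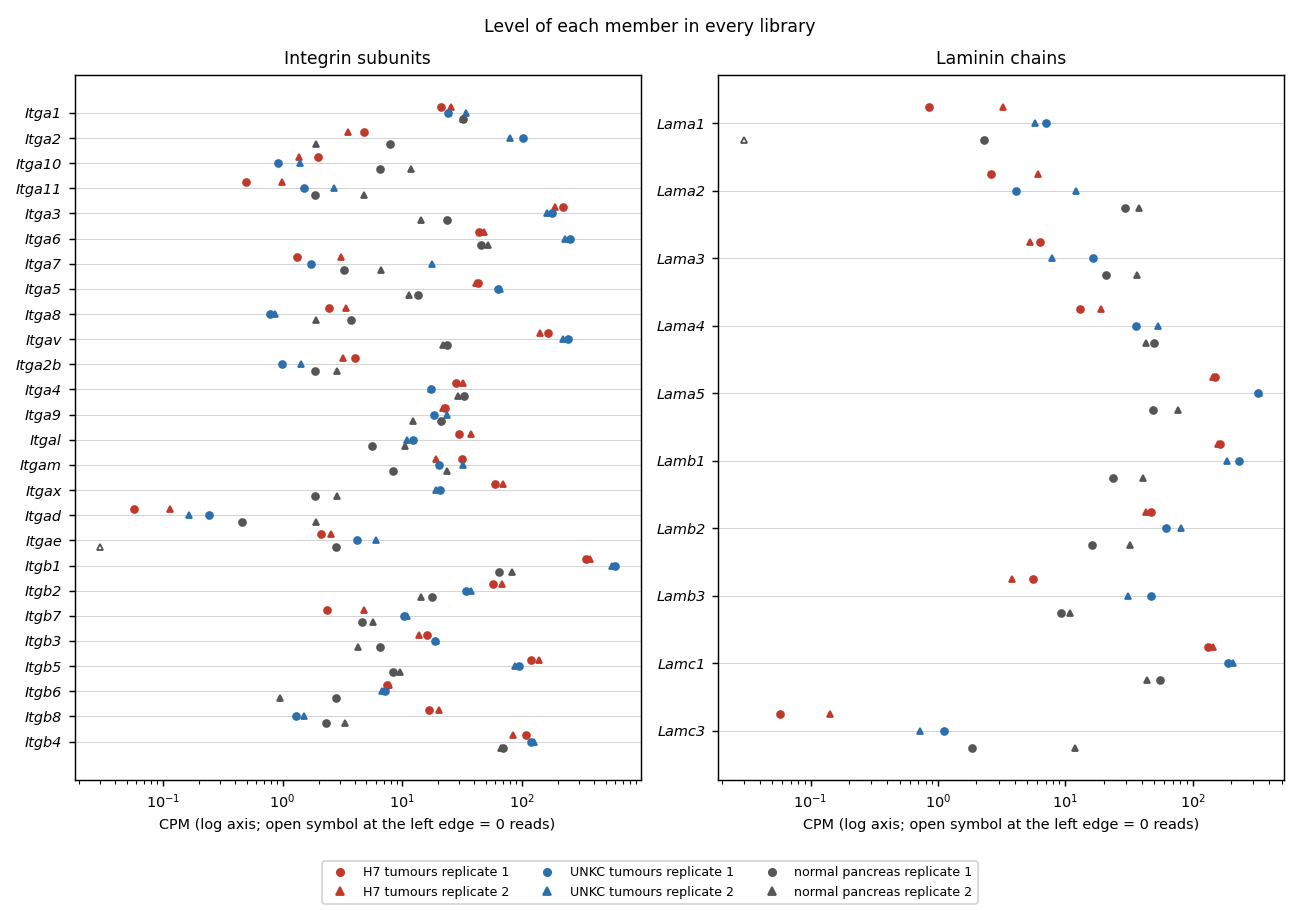
Each point is the level of a member in 1 library, in CPM of the effective library size on a log axis, for H7 tumours, UNKC tumours and normal pancreas (n = 2 each). Itgb1 has the highest level in every tumour library, and Itga2 and Lamb3 lie higher in both UNKC libraries than in the other 4.

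Itgb1, the shared partner of the laminin, collagen and fibronectin receptors, had the highest CPM of the set in every tumour library. It stood at 343 and 373 CPM in H7 tumours and 599 and 562 CPM in UNKC tumours, against 64.8 and 83.0 CPM in normal pancreas. Itgb1 rose by a log2 fold change of 2.28 ± 0.17 (SE, adjusted p = 0.000241) in H7 and 2.97 ± 0.17 (SE, adjusted p = 0.000157) in UNKC tumours. H7 tumours were lower than UNKC tumours by a log2 fold change of -0.70 ± 0.16 (SE, adjusted p = 0.0308), which was lost without any 1 tumour library (adjusted p up to 0.235). Itga5, which with Itgb1 makes the main fibronectin receptor, stood at 42.9 and 41.3 CPM in H7 tumours and 63.5 and 65.4 CPM in UNKC tumours, against 13.4 and 11.4 CPM in normal pancreas. The 3 groups did not overlap, and Itga5 rose by a log2 fold change of 1.76 ± 0.15 (SE, adjusted p = 0.000352) in H7 and 2.37 ± 0.15 (SE, adjusted p = 0.000184) in UNKC tumours. Itgav, the alpha chain that takes up 5 different beta chains, stood at 164 and 142 CPM in H7 tumours and 243 and 219 CPM in UNKC tumours, against 23.6 and 21.9 CPM in normal pancreas. Itgav rose by a log2 fold change of 2.75 ± 0.15 (SE, adjusted p = 0.000147) in H7 and 3.34 ± 0.15 (SE, adjusted p = 0.000139) in UNKC tumours. Itga5 and Itgav were lower in H7 than in UNKC tumours by a log2 fold change of -0.61 ± 0.13 (SE, adjusted p = 0.0254) and -0.59 ± 0.13 (SE, adjusted p = 0.0307), and both calls were lost without any 1 tumour library. Itga8, a receptor for nephronectin in mesenchyme, averaged under 3 CPM, yet fell in UNKC tumours (a log2 fold change of -1.77 ± 0.53, SE, adjusted p = 0.035) and was higher in H7 than in UNKC tumours (1.83 ± 0.34, SE, adjusted p = 0.0178). Both calls of Itga8 were lost without any 1 tumour library, and the fall also without normal replicate 1.

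The beta chains that pair with Itgav divided. Itgb5, which with Itgav binds vitronectin, stood at 119 and 139.6 CPM in H7 tumours and 93.8 and 86.8 CPM in UNKC tumours, against 8.33 and 9.54 CPM in normal pancreas. It was one of the largest rises of the set, at a log2 fold change of 3.86 ± 0.17 (SE, adjusted p = 0.00013) in H7 and 3.34 ± 0.17 (SE, adjusted p = 0.000143) in UNKC tumours, and just missed the threshold between them (0.52 ± 0.14, SE, adjusted p = 0.0509). With DESeq2 (adjusted p = 0.00121 at a log2 fold change of 0.56), with RLE factors and without either normal library Itgb5 was called higher in H7 than in UNKC tumours. Itgb3, the vitronectin and fibrinogen receptor chain of vessels, osteoclasts and platelets, stood at 16.3 and 13.7 CPM in H7 tumours and 18.8 and 19.0 CPM in UNKC tumours, against 6.48 and 4.29 CPM in normal pancreas. Itgb3 rose by a log2 fold change of 1.47 ± 0.25 (SE, adjusted p = 0.00388) in H7 and 1.81 ± 0.25 (SE, adjusted p = 0.0019) in UNKC tumours. Itgb6, an epithelial chain that with Itgav activates latent TGF-beta, stood at 7.43 and 7.70 CPM in H7 tumours and 7.14 and 6.80 CPM in UNKC tumours, against 2.78 and 0.954 CPM in normal pancreas, on 6 and 2 reads in normal pancreas. Itgb6 rose by a log2 fold change of 2.01 ± 0.41 (SE, adjusted p = 0.00805) in H7 and 1.89 ± 0.41 (SE, adjusted p = 0.0109) in UNKC tumours. Without normal replicate 1 these log2 fold changes were 3.01 and 2.89. Between the tumours Itgb6 differed by a log2 fold change of 0.12 ± 0.26 (SE, adjusted p = 0.813) and did not pass the test.

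Itgb8, at chr12:119162803-119238276, the other chain that activates latent TGF-beta with Itgav, set the tumours apart. It stood at 16.8 and 20.5 CPM in H7 tumours and 1.31 and 1.50 CPM in UNKC tumours, against 2.31 and 3.34 CPM in normal pancreas. H7 tumours were above the rest and UNKC tumours lowest. Itgb8 was higher in H7 than in UNKC tumours by a log2 fold change of 3.73 ± 0.24 (SE, adjusted p = 0.000817) and higher in H7 tumours than in normal pancreas by 2.72 ± 0.29 (SE, adjusted p = 0.000794). Both calls held with any 1 library left out (adjusted p 0.00141 to 0.0214 and 0.00151 to 0.0101). The fall in UNKC tumours, a log2 fold change of -1.01 ± 0.33 (SE, adjusted p = 0.049), was lost without any 1 library but normal replicate 1 (adjusted p up to 0.164), and normal pancreas had 5 and 7 reads. Itga2b, the platelet fibrinogen receptor chain, averaged under 5 CPM and was higher in H7 than in UNKC tumours by a log2 fold change of 1.57 ± 0.33 (SE, adjusted p = 0.0243). Platelet markers summed to 4.63 and 3.44 CPM in H7 tumours and 5.44 and 6.56 CPM in UNKC tumours, against 12.0 and 12.4 CPM in normal pancreas. The normal sums rested on 26 reads in each library. Gp6 was at 0 in UNKC tumours, and Gp1ba, Gp1bb and Gp6 were at 0 in normal pancreas. The part of these markers in the Itga2b level was not tested. The Itga2b call was lost without either H7 library or UNKC replicate 1.

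Itga4, which with Itgb1 binds VCAM-1 and with Itgb7 the addressin of gut vessels, stood at 28.1 and 32.3 CPM in H7 tumours and 17.3 and 17.4 CPM in UNKC tumours, against 32.9 and 29.1 CPM in normal pancreas. H7 tumours overlapped normal pancreas, and UNKC tumours were lower than it by a log2 fold change of -0.84 ± 0.15 (SE, adjusted p = 0.006). With a filter of 10 CPM Itga4 was also called lower in H7 tumours (adjusted p = 0.0237 at a log2 fold change of -0.56). The difference between H7 and UNKC tumours was a log2 fold change of 0.80 ± 0.15 (SE, adjusted p = 0.016). It was lost without any 1 tumour library, and the UNKC fall without UNKC replicate 1 (adjusted p = 0.0557). Itga9, a receptor for tenascin-C and osteopontin, stood at 22.8 and 21.9 CPM in H7 tumours and 18.5 and 23.8 CPM in UNKC tumours, against 21.3 and 12.4 CPM in normal pancreas, and did not pass the edgeR test. Without normal replicate 1 it was called higher in H7 tumours (adjusted p = 0.023 at a log2 fold change of 0.87) and in UNKC tumours (adjusted p = 0.0319 at a log2 fold change of 0.79) than in normal pancreas.

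Among the integrins of leukocytes Itgax rose most. Itgax, known as CD11c, stood at 59.9 and 69.1 CPM in H7 tumours and 20.6 and 19.0 CPM in UNKC tumours, against 1.85 and 2.86 CPM in normal pancreas, with no overlap between the groups. Its normal value rested on 4 and 6 reads, which count both mates of a pair. The rise was a log2 fold change of 4.78 ± 0.24 (SE, adjusted p = 0.000136) in H7 tumours, the largest of the 36 members, and 3.07 ± 0.24 (SE, adjusted p = 0.000299) in UNKC tumours. Itgax was higher in H7 than in UNKC tumours by a log2 fold change of 1.70 ± 0.17 (SE, adjusted p = 0.00229), which held with any 1 library left out. Itgb2, the beta chain shared by the CD11 integrins, stood at 57.2 and 67.9 CPM in H7 tumours and 34.1 and 37.7 CPM in UNKC tumours, against 17.6 and 14.3 CPM in normal pancreas. Itgb2 rose by a log2 fold change of 1.97 ± 0.18 (SE, adjusted p = 0.000443) in H7 and 1.17 ± 0.18 (SE, adjusted p = 0.00283) in UNKC tumours and was higher in H7 tumours by 0.80 ± 0.16 (SE, adjusted p = 0.0213). Itgal, the alpha chain of LFA-1, stood at 29.6 and 37.3 CPM in H7 tumours and 12.2 and 10.9 CPM in UNKC tumours, against 5.55 and 10.5 CPM in normal pancreas. It rose in H7 tumours by a log2 fold change of 2.06 ± 0.30 (SE, adjusted p = 0.0024), did not pass in UNKC tumours (0.53 ± 0.30, SE, adjusted p = 0.203), and was higher in H7 than in UNKC tumours by 1.54 ± 0.26 (SE, adjusted p = 0.0122). Without normal replicate 2 Itgal was called higher in UNKC tumours as well (adjusted p = 0.0193 at a log2 fold change of 1.09). The differences of Itgb2 and Itgal between the tumours were lost without any 1 tumour library. Itgam, known as CD11b, stood at 31.4 and 19.1 CPM in H7 tumours and 20.5 and 32.4 CPM in UNKC tumours, against 8.33 and 23.8 CPM in normal pancreas, so all groups overlapped and it did not pass the edgeR test. Without normal replicate 2 it was called higher in UNKC tumours than in normal pancreas (adjusted p = 0.048 at a log2 fold change of 1.70).

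Markers of leukocytes, which carry these chains, were summed in each library. The 6 general leukocyte markers summed to 255 and 281 CPM in H7 tumours and 224 and 185 CPM in UNKC tumours, against 62.5 and 115 CPM in normal pancreas. The 7 macrophage and monocyte markers summed to 904 and 736 CPM in H7 tumours and 424 and 415 CPM in UNKC tumours, against 99.5 and 180.3 CPM in normal pancreas, and were thus highest in H7 tumours. Itgax, Itgb2 and Itgal were likewise highest there, whereas Itgam overlapped between H7 and UNKC tumours (log2 fold change -0.07 ± 0.46, SE, adjusted p = 0.947 in edgeR). The 5 dendritic cell markers summed to 6.25 and 10.4 CPM in H7 tumours and 5.76 and 7.69 CPM in UNKC tumours, against 22.2 and 26.2 CPM in normal pancreas, and were thus highest in normal pancreas, although Flt3 and Xcr1 were at 0 there. The 6 neutrophil markers summed to 30.5 and 43.8 CPM in H7 tumours and 7.56 and 6.45 CPM in UNKC tumours, against 7.40 and 22.4 CPM in normal pancreas, likewise highest in H7 tumours, with Cxcr2, Retnlg and Ly6g at 0 in normal pancreas. The part of these markers in the Itgax, Itgb2 and Itgal values was not tested. Itgb7, the chain of gut-homing and intraepithelial lymphocytes, stood at 2.35 and 4.77 CPM in H7 tumours and 10.4 and 11.1 CPM in UNKC tumours, against 4.63 and 5.72 CPM in normal pancreas, and was lower in H7 than in UNKC tumours by a log2 fold change of -1.59 ± 0.35 (SE, adjusted p = 0.03). The T cell markers summed to 8.22 and 11.2 CPM in H7 tumours and 22.6 and 24.7 CPM in UNKC tumours, against 4.63 and 4.77 CPM in normal pancreas, likewise highest in UNKC tumours, and their part was not tested. The Itgb7 call was lost without H7 replicate 1 or either UNKC library, and the log2 fold change was -2.19 without H7 replicate 2. Without either H7 library Itgb7 was called higher in UNKC tumours than in normal pancreas (adjusted p up to 0.0355). Itgae, which pairs with Itgb7 and binds E-cadherin, stood at 2.08 and 2.54 CPM in H7 tumours and 4.16 and 6.03 CPM in UNKC tumours, against 2.78 and 0 CPM in normal pancreas, and did not pass the edgeR test. Without normal replicate 1, which leaves normal pancreas with no read of Itgae, it was called higher in both tumours (adjusted p = 0.0199 in H7 and 0.00809 in UNKC tumours). Without either normal library Itgae was called lower in H7 than in UNKC tumours (log2 fold change -1.13, adjusted p up to 0.0387). Itgad, a CD11 chain of macrophages, had 13 reads in H7 tumours, 36 in UNKC tumours and 5 in normal pancreas. It was called lower in H7 tumours (adjusted p = 0.0329). With the 2 libraries of a group summed, 6 read pairs in H7 tumours stood against 2 in normal pancreas. Relative to effective library size this is a log2 ratio of -3.52, with a 95% counting interval of -6.01 to -0.18, which covers counting error only. The call was lost without any 1 library but normal replicate 1.

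Because library scaling weighs on the comparisons with normal pancreas, the make-up of each chain class was also given as the share of each chain in the summed TPM of its class, which corrects for gene length and does not depend on that scaling. With 2 libraries against 2, the exact two-sided permutation test cannot give a p under 0.333, so the shares are descriptions. Of the laminin alpha TPM, Lama5 held 80.8% and 73.2% in H7 tumours and 76.8% and 71.8% in UNKC tumours, against 23.9% and 31.4% in normal pancreas. Lama4 held 13.3% and 18.3% in H7 tumours and 15.9% and 21.8% in UNKC tumours, against 46.3% and 33.7% in normal pancreas. Lama2 held 1.65% and 3.63% in H7 tumours and 1.12% and 3.10% in UNKC tumours, against 17.1% and 18.2% in normal pancreas. The tumours thus overlapped each other in their alpha chains and stood apart from normal pancreas in all 3. Among the beta chains Lamb1 held 74.4% and 76.2% in H7 tumours and 63.9% and 59.3% in UNKC tumours, against 44.2% and 45.3% in normal pancreas. Lamb3 held 3.61% and 2.61% in H7 tumours and 18.5% and 14.2% in UNKC tumours, against 24.7% and 17.5% in normal pancreas, so that H7 tumours stood apart from the other 4 libraries.

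Of the integrin alpha TPM, Itga3 held 35.1% and 31.6% in H7 tumours and 19.1% and 18.2% in UNKC tumours, against 11.2% and 6.40% in normal pancreas. Itga6 held 8.03% and 9.30% in H7 tumours and 31.2% and 29.6% in UNKC tumours, against 25.1% and 26.8% in normal pancreas. Itga3 was thus the leading alpha chain of H7 tumours, and Itga6 that of UNKC tumours and normal pancreas. Within the 3 laminin-binding alpha chains alone, Itga3 held 80.9% and 76.1% in H7 tumours and 37.8% and 36.2% in UNKC tumours, against 29.4% and 17.4% in normal pancreas. Within the 4 collagen-binding chains Itga2 held 22.2% and 14.9% in H7 tumours and 84.2% and 74.2% in UNKC tumours, against 21.0% and 4.92% in normal pancreas. Itga1 held 68.3% and 76.7% in H7 tumours and 14.1% and 22.6% in UNKC tumours, against 60.2% and 58.9% in normal pancreas. Itga2 thus led that subgroup in UNKC tumours only, and Itga1 led it in H7 tumours and normal pancreas.

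Of the integrin beta TPM, Itgb1 held 49.2% and 49.0% in H7 tumours and 67.5% and 65.9% in UNKC tumours, against 39.1% and 46.3% in normal pancreas, the largest share in every library. Itgb5 held 21.8% and 23.5% in H7 tumours and 13.5% and 13.0% in UNKC tumours, against 6.42% and 6.80% in normal pancreas. Itgb4 held 10.6% and 7.59% in H7 tumours and 9.11% and 10.1% in UNKC tumours, against 28.5% and 25.5% in normal pancreas. Itgb4 thus took a smaller share of the beta chains in both tumours than in normal pancreas, although its CPM was higher in the tumours. Within the 4 beta chains that pair with Itgav besides Itgb1, Itgb8 held 11.8% and 12.5% in H7 tumours and 1.25% and 1.53% in UNKC tumours, against 15.1% and 21.9% in normal pancreas. UNKC tumours stood apart from the other 4 libraries in that share. Within the 5 leukocyte alpha chains Itgax held 53.7% and 59.2% in H7 tumours and 40.0% and 31.3% in UNKC tumours, against 11.4% and 8.57% in normal pancreas. Itgam held 24.2% and 14.1% in H7 tumours and 34.2% and 45.9% in UNKC tumours, against 44.2% and 61.4% in normal pancreas. The leading leukocyte alpha chain was Itgax in H7 tumours and Itgam in normal pancreas, and it differed between the UNKC libraries.

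**Figure D3:**
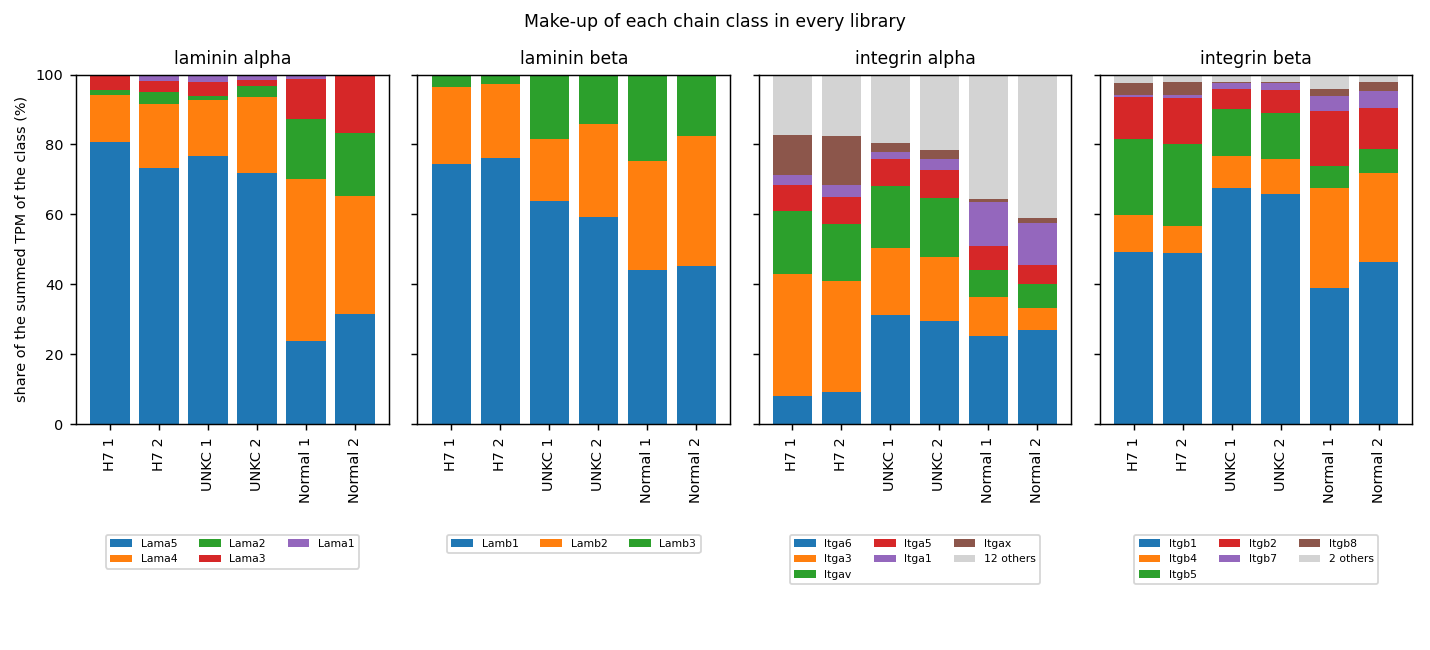
Stacked bars show the share of each chain in the summed TPM of its class, in percent, for each of the 6 libraries. Lama5 makes up 71.8% to 80.8% of the laminin alpha TPM in the tumour libraries, and 23.9% and 31.4% in the normal libraries.

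**Figure D4:**
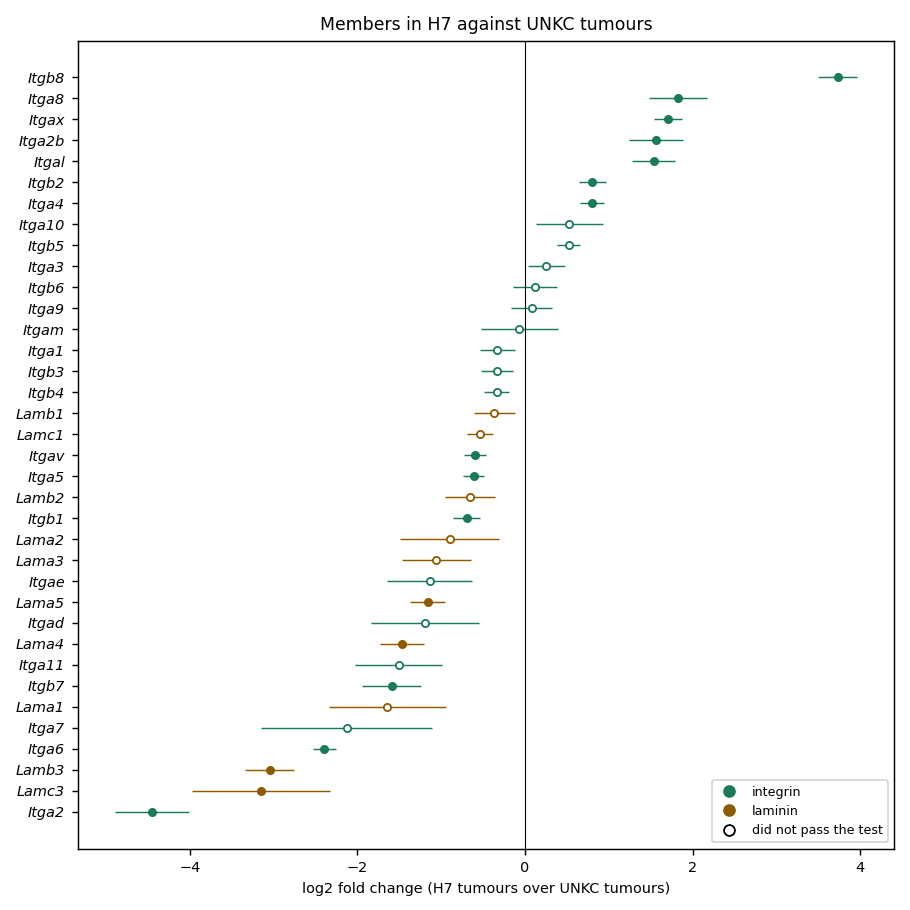
Points show the log2 fold change of H7 against UNKC tumours for each member, with the SE of the edgeR fit. Itgb8 lies highest at 3.73 and Itga2 lowest at -4.45, and all laminin genes lie below 0.

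The genes that act with these receptors were counted from 3 lists. Of 34 focal adhesion adaptors and kinases 24 rose and 5 fell in H7 tumours, and 23 rose and 4 fell in UNKC tumours, against normal pancreas. Over all tested genes the shares were 29.6% higher and 21.9% lower in H7, and 29.1% and 19.3% in UNKC tumours. Their median log2 fold change was 1.33 in H7 and 1.26 in UNKC tumours, beside 0.34 and 0.42 over all tested genes. Cd151 and Cd9, tetraspanins that sit beside laminin-binding integrins, rose by a log2 fold change of 3.66 ± 0.24 (SE, adjusted p = 0.00019) and 3.30 ± 0.21 (SE, adjusted p = 0.000182) in H7 tumours and 4.30 ± 0.25 (SE, adjusted p = 0.000157) and 3.94 ± 0.21 (SE, adjusted p = 0.00015) in UNKC tumours. Tns1, a tensin that ties integrin tails to actin, fell in H7 tumours by a log2 fold change of -3.49 ± 0.13 (SE, adjusted p = 0.000102), and Lims2, an adaptor of integrin-linked kinase, by -2.60 ± 0.58 (SE, adjusted p = 0.0119). In UNKC tumours Lims2 fell by a log2 fold change of -3.33 ± 0.60 (SE, adjusted p = 0.0055), and the tensin Tns2 by -1.24 ± 0.20 (SE, adjusted p = 0.00352). The other falls, named after their values were seen, were those of Tgfb1i1, Fyn and Tns2 in H7 tumours and of Ptk2 and Tns1 in UNKC tumours. The Lims2 call in H7 tumours was lost without either H7 library or normal replicate 1 (adjusted p up to 0.0991), and without normal replicate 1 the log2 fold change was -1.60 in H7 and -2.34 in UNKC tumours. Of the 34, the number that fell depended on single libraries in both tumours, as did the share of all tested genes. With total counts and no factor none was called lower in either, and Lims2 in both tumours and Tns2 in UNKC tumours had a positive log2 fold change.

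Between the tumours 2 of the 34 were higher and 6 lower in H7, beside 7.14% and 11.1% of all tested genes, with a median log2 fold change of 0.04, beside -0.02 over all genes. Parva, a parvin that ties integrin-linked kinase to actin, and Tns3, another tensin, were higher in H7 by a log2 fold change of 0.61 ± 0.11 (SE, adjusted p = 0.0154) and 0.60 ± 0.14 (SE, adjusted p = 0.0327), and both calls were lost without any 1 tumour library. Tns1 and Tgfb1i1, a paxillin relative, were lower in H7 by a log2 fold change of -2.98 ± 0.13 (SE, adjusted p = 0.000313) and -2.32 ± 0.32 (SE, adjusted p = 0.00629), the second of which was lost without H7 replicate 1 (adjusted p = 0.0722). These counts depended on single libraries, as did those over all tested genes. At an unadjusted p below 0.05 in edgeR 7 were higher and 11 lower, for which no share over all genes was counted. DESeq2 called 9 higher and 11 lower, beside 15.2% and 15.0% of all tested genes.

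Of 20 tested integrin ligands other than laminins and collagens, 13 rose and 2 fell in H7 tumours and 15 rose and 0 fell in UNKC tumours, beside 29.6% higher and 21.9% lower of all tested genes in H7 and 29.1% and 19.3% in UNKC tumours. The edgeR test gave 0 falls in UNKC tumours also at an unadjusted p below 0.05, and DESeq2 called 1, beside 26.6% of all tested genes lower. No median is given, because 3 of the 20 (Edil3, Madcam1 and Dmp1) had no read in normal pancreas. Tnc, the tenascin-C bound by Itga9 and Itgav integrins, stood at 1586 and 1349.6 CPM in H7 tumours and 502 and 774 CPM in UNKC tumours, against 8.33 and 12.9 CPM in normal pancreas. Tnc rose by a log2 fold change of 7.11 ± 0.36 (SE, adjusted p = 0.000136) in H7 tumours. Edil3, an RGD ligand of Itgav integrins, had 43.9 and 42.8 CPM in H7 tumours and 9.72 and 4.75 CPM in UNKC tumours, and no read in normal pancreas. Npnt, the nephronectin bound by Itga8, stood at 15.6 and 17.4 CPM in H7 tumours and 97.5 and 101 CPM in UNKC tumours, against 1.85 and 0 CPM in normal pancreas, where it had 4 reads, and passed the test as higher in H7 tumours (adjusted p = 0.00288) and in UNKC tumours (adjusted p = 0.000407). Vwf, of vessel walls, fell in H7 tumours by a log2 fold change of -1.33 ± 0.34 (SE, adjusted p = 0.0184), and this call was lost without H7 replicate 1 or either normal library (adjusted p up to 0.095). The other fall, named after its value was seen, was that of Vtn, the vitronectin bound by Itgav integrins. With total counts and no factor 0 ligands were called lower in H7 tumours, and Vwf had a positive log2 fold change.

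Between the tumours 4 ligands were higher and 5 lower in H7, beside 7.14% and 11.1% of all tested genes, with a median log2 fold change of -0.63, beside -0.02 over all genes. Thbs1, a thrombospondin, and Edil3 were higher by a log2 fold change of 2.61 ± 0.27 (SE, adjusted p = 0.00271) and 2.58 ± 0.37 (SE, adjusted p = 0.0118). Npnt and Fbn1, the fibrillin of microfibrils, were lower by a log2 fold change of -2.59 ± 0.41 (SE, adjusted p = 0.00805) and -2.08 ± 0.54 (SE, adjusted p = 0.0469). The Edil3 and Npnt calls were lost without either H7 library, and that of Fbn1 without any 1 library but H7 replicate 2 (adjusted p up to 0.153). The counts of ligands called depended on single libraries, as did those over all tested genes. DESeq2 called 8 lower, beside 15.0% of all tested genes.

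Of 24 basement membrane partners and other laminin receptors, 12 rose and 3 fell in H7 tumours and 14 rose and 1 fell in UNKC tumours, beside 29.6% higher and 21.9% lower of all tested genes in H7 and 29.1% and 19.3% in UNKC tumours. Their median log2 fold change was 0.69 in H7 and 1.54 in UNKC tumours, beside 0.34 and 0.42 over all genes. Col18a1, a collagen of basement membranes, and Cd44, a hyaluronan receptor, rose in H7 tumours by a log2 fold change of 3.34 ± 0.13 (SE, adjusted p = 0.000105) and 3.06 ± 0.14 (SE, adjusted p = 0.000134). In UNKC tumours Fbln2, a fibulin that binds laminins, rose by a log2 fold change of 4.87 ± 0.45 (SE, adjusted p = 0.000497) and Cd44 by 4.42 ± 0.14 (SE, adjusted p = 9.84e-05). Utrn, which links laminin-bound dystroglycan to actin, fell by a log2 fold change of -1.40 ± 0.14 (SE, adjusted p = 0.000611) in H7 and -1.15 ± 0.14 (SE, adjusted p = 0.00124) in UNKC tumours. Nid2, a nidogen, fell in H7 tumours by a log2 fold change of -0.90 ± 0.29 (SE, adjusted p = 0.0408), a call lost without any 1 library but normal replicate 1 (adjusted p up to 0.186). The third fall in H7 tumours, named after its value was seen, was that of Sgce. Of the 24, the number that fell in H7 tumours depended on single libraries, as did the share of all tested genes. With total counts and no factor 0 were called lower in either tumour, and Utrn and Nid2 had positive log2 fold changes.

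Between the tumours 1 of the 24, Ntn4, a netrin that binds laminins, was higher in H7 (1.78 ± 0.15, SE, adjusted p = 0.00174) and 7 were lower, beside 7.14% and 11.1% of all tested genes, with a median log2 fold change of -0.79, beside -0.02 over all genes. The number lower in H7 depended on single libraries, as did that over all tested genes. Fbln2 stood at 12.4 and 23.2 CPM in H7 tumours and 677 and 619.5 CPM in UNKC tumours, against 14.8 and 29.6 CPM in normal pancreas. Nid1, the nidogen that joins laminin to collagen IV, stood at 15.0 and 26.8 CPM in H7 tumours and 235 and 250.5 CPM in UNKC tumours, against 31.5 and 52.9 CPM in normal pancreas. H7 tumours were lower than UNKC tumours by a log2 fold change of -5.19 ± 0.44 (SE, adjusted p = 0.0017) for Fbln2 and -3.54 ± 0.36 (SE, adjusted p = 0.00259) for Nid1. Both H7 and normal libraries of these genes lay far below the UNKC libraries. Fibroblast markers summed to 903 and 1543 CPM in H7 tumours and 1965 and 3132 CPM in UNKC tumours, against 319 and 504 CPM in normal pancreas, and their part in these differences was not tested.

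The authors' deposited table for H7 tumours against normal pancreas lists 35 of the members and calls 14 higher and 8 lower at an adjusted p below 0.05. Over all genes it calls 3536 higher and 3556 lower of 15306 listed. The authors' deposited table for UNKC tumours lists all 36 and calls 17 higher and 6 lower, beside 3595 and 3535 of 15940 listed genes. In those tables Itga1 is lower in H7 tumours at a log2 fold change of -0.61 (adjusted p = 0.0443), and Itgb4 in H7 tumours (0.36, adjusted p = 0.174) and Itgb8 in UNKC tumours (-0.87, adjusted p = 0.161) are not called. For UNKC tumours the authors' table calls Lama1 higher (1.93, adjusted p = 0.0397) and Lama3 lower (-1.16, adjusted p = 0.0383). It does not call Itgb6 there (1.34, adjusted p = 0.0572), so the equal UNKC totals of 17 and 6 hold different members. These genes were chosen after their values were seen, as examples of calls that differ between the authors' deposited table and the fit used here.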

How the data were processed

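RNA of 6 samples was sequenced by the submitters, who used STAR, featureCounts and DESeq2 1.18.1 on mm10, per the submitters' processing notes. The deposited counts per sample are raw whole-number reads per gene ID. They hold both mates of a pair: the median ratio to the fragment counts in the authors' comparison tables was 2.00. Those deposited tables also hold gene length in bases, TPM, which the authors computed from counts and length, log2 fold changes, and the authors' p-values with adjusted p-values. Whether counting used strand is not given in the sources used here, so genes that overlap on opposite strands may share reads.

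Members were taken by symbol from the authors' tables, and gene positions from RefSeq on GRCm38.p6. Counts of all genes were scaled with TMM factors (2.07 and 2.15 in H7, 2.23 and 2.21 in UNKC, 0.179 and 0.256 in normal libraries), filtered with filterByExpr, and fitted to all 6 libraries with the edgeR 4.0.16 quasi-likelihood model (R 4.3.3), with group as the only term. The 3 comparisons have Benjamini-Hochberg adjusted p-values over the 16306 genes tested, with a threshold of 0.05. DESeq2 1.42.0 was an alternative. Shares use TPM computed from counts and length, and exact permutation tests in SciPy 1.17.1. A counting interval is an exact binomial one on read pairs. Python 3.11.15 with pandas 2.3.3 and matplotlib 3.10.9 prepared tables and figures. Across genes, the log2 CPM of the 2 replicates had a Pearson r of 0.967 in H7, 0.949 in UNKC and 0.801 in normal libraries.

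The members, the lists and the tests were chosen with earlier results of these data known. A member was described in every library where it averaged at least 20 CPM in 1 group or passed a test with 5 CPM or more in its higher group, and the others more briefly. Of each gene list up to 2 rises and 2 falls per comparison with at least 5 CPM are named. Of 26 symbols in the ligand list 24 matched a gene and 20 were tested. The promoter table held 23 of the 36 members. Alternatives covered the scaling, filter, test, libraries left out and a replicate block, and 1 was added after seeing the data (leaving out the unnamed gene besides ribosomal RNA and Lars2).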

Additional observations from a re-analysis of the deposited data

Results flagged for a closer look

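The changes of 17 of the 36 members against normal pancreas differed between the tumours, beside 18.3% of all tested genes in either direction. The test was the contrast of H7 with UNKC tumours in the edgeR fit (adjusted p below 0.05 over all tested genes). On the log2 scale the difference was positive for Itga8 (1.83), Itga2b (1.57), Itga4 (0.80), Itgal (1.54), Itgax (1.70), Itgb2 (0.80) and Itgb8 (3.73). It was negative for Itga2 (-4.45), Itga6 (-2.40), Itga5 (-0.61), Itgav (-0.59), Itgb1 (-0.70), Itgb7 (-1.59), Lama4 (-1.47), Lama5 (-1.16), Lamb3 (-3.05) and Lamc3 (-3.15). The groups of 2 libraries are too small for a check of single samples against their group. Itgb8 and Lamb3 were called in opposite directions against normal pancreas, although the fall of Itgb8 in UNKC tumours and that of Lamb3 in H7 tumours depended on single libraries. Itga6, Itgax, Itgb8 and Lamb3 kept the call with any 1 library left out. Each of the other members called between the tumours lost it without at least 1 tumour library.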

How the results depend on the processing

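The counts of members called kept within 1.5 times the reported ones under RLE and upper-quartile factors, a 10 CPM filter, DESeq2, fragment counts and fits on the 4 libraries compared. Total counts with no factor gave 29 higher and 1 lower in H7 tumours, 32 and 0 in UNKC tumours against normal pancreas, and 3 and 4 between the tumours. Over all tested genes that setting called 77.9% higher and 3.21% lower in H7, 82.8% and 1.91% in UNKC tumours, and 3.98% and 9.16% between them. Falls in UNKC tumours numbered 2 with total counts without ribosomal RNA and Lars2 (13.0% of all tested genes lower), and 3 with no filter (13.8%). With 1 library left out they numbered 2 to 5 and rises 17 to 19, falls in H7 tumours 4 to 6 and rises 14 to 16, and calls between the tumours 2 to 8 higher and 2 to 13 lower. Without replicate 2 of both tumours, with 1 residual degree of freedom, edgeR called no gene, member or other. The median member then had a log2 fold change of 0.60 in H7 tumours, 1.04 in UNKC tumours and -0.43 between them. Over all tested genes the median was 0.29, 0.35 and -0.01. Whether the replicate numbers pair samples is not given in the labels. Deviations of same-numbered libraries correlated at r = 0.526 between H7 and UNKC, -0.01 between H7 and normal and -0.02 between UNKC and normal libraries. With a replicate block 15 members rose and 7 fell in H7 tumours, 17 rose and 4 fell in UNKC tumours, and 7 were higher and 11 lower in H7 than in UNKC. Over all tested genes the block gave 28.0% higher and 20.9% lower in H7, 27.6% and 18.2% in UNKC tumours, and 7.2% and 12.5% between them. The block ended the calls of Itgb4 and Itgad in H7 and of Itga8 and Itgb8 in UNKC tumours, and added Itga11 and Lamb2 in H7 tumours and Itga11 between the tumours. Without length correction the shares were, in H7, UNKC and normal samples, 83.9%, 82.2% and 35.7% (Lama5), 9.15%, 11.1% and 27.7% (Lama4), 2.22%, 12.1% and 16.0% (Lamb3), 6.96%, 25.6% and 20.4% (Itga6), 18.7%, 10.4% and 4.89% (Itgb5), Lamb1 65.2% in UNKC and 48.2% in normal, and Itgb1 51.7% in H7. The authors' TPM gave 43.7% (Lamb1, normal) and 48.6% (Itgb1, H7). Total counts with no factor turned the sign in H7 tumours Itga1 2.82, Itga2 3.13, Itga10 0.78, Itga11 1.12, Itga6 3.18, Itga7 2.11, Itga4 3.26, Itgb7 2.76, Lama2 0.32, Lama3 0.92, Lama4 1.77, Lamb3 2.18, Lims2 0.76, Vwf 1.96, Utrn 1.88, Nid2 2.36 and in UNKC tumours Itga1 3.22, Itga10 0.32, Itga11 2.69, Itga8 1.64, Itga2b 2.41, Itga4 2.53, Itgad 0.83, Itgb8 2.35, Lama2 1.28, Lama3 2.05, Lama4 3.31, Lamc3 0.37, Lims2 0.10, Tns2 2.15, Utrn 2.19. Without ribosomal RNA and Lars2 the sign turned in H7 tumours Itga1 0.070, Itga2 0.25, Itga6 0.45, Itga4 0.48, Itgb7 0.0097 and in UNKC tumours Itga1 0.36, Lama4 0.42. It also turned with DESeq2 in H7 tumours Itga8 -0.092. Other turns were with RLE factors in H7 tumours Itga8 -0.11, with a 10 CPM filter in H7 tumours Itga9 -0.13, Itgb4 -0.020 and in UNKC tumours Itga9 -0.17, with fragment counts in H7 tumours Itga8 -0.17, with no filter in H7 tumours Itga6 0.0059, Itga4 0.058 and in UNKC tumours Lama4 0.029, with the 4 libraries compared in H7 tumours Itga8 -0.053, with a replicate block in H7 against UNKC Itgam 0.0038, with upper-quartile factors in H7 tumours Itga8 -0.30 and in UNKC tumours Itga9 -0.045. Leaving out 1 library, or replicate 2 of both tumours, turned these members, none of which was called with all 6 libraries, over the ranges in H7 tumours Itga2 -0.88 to 1.15, Itga6 -0.17 to 0.047, Itga8 -0.30 to 0.65, Itga4 -0.16 to 0.13, Itgae -0.23 to 10.24, Lama1 -0.47 to 10.07, and in UNKC tumours Itga1 -0.42 to 0.12, Itga11 -1.15 to 0.22, Itga7 -1.53 to 1.86, Lama4 -0.39 to 0.21, and in H7 against UNKC Itga7 -2.99 to 0.35, Itga9 -0.086 to 0.30, Itgam -0.44 to 0.62, Lama2 -1.64 to 0.091. At the far end of its range Itgae was called without normal replicate 1, which leaves no normal read, and Itga7 without UNKC replicate 1. The cause of these turns was not tested. Normal pancreas limits depth: with few reads per member there, a miss of the threshold does not show equal levels. TMM assumes that most genes do not change, which these tissues cannot check.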
